A study of Mus musculus with 12 samples.

Results

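The transcripts followed here encode the enzymes that attach ubiquitin to proteins and take it off again. The set was all probe sets of the mouse arrays U74Av2, U74Bv2 and U74Cv2 annotated with a single gene symbol that begins with Ube2, Usp or Uch, or that is Cbl, Cblb, Itch or Nedd4. Ube2c, Usp18 and Usp9y were left out of the set. It came to 86 of 15964 genes, measured by 195 of the 36701 probe sets that are not Affymetrix controls. There were 76 probe sets of 32 Ube2 genes, 103 of 47 Usp genes, 6 of 3 Uch genes and 10 of the 4 other genes. The choice by prefix also took in genes with other work, among them Usp6nl, a GTPase-activating protein for Rab proteins, and the pseudogene Ube2d-ps. Probe sets annotated with several symbols were not members.

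RNA of all thymocytes of adult C57BL/6 mice, the wild type, was set against that of adult AND-TCR–transgenic mice of the H-2b haplotype, whose thymocytes carry a rearranged TCR for MHC class II and are selected to the CD4 lineage. Each group had 2 hybridizations on each array type, 12 arrays in all. The labels name them a first and a second hybridization and do not say whether they came from separate mice. The p-values therefore measure no more than the spread from hybridization to hybridization, and that may be technical. In total thymocytes, fewer cells of a type and less RNA per cell cannot be told apart.

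Ubiquitin is activated by an E1 enzyme, passed to an E2 conjugating enzyme (the Ube2 genes) and joined to a target protein with the help of an E3 ligase, which picks the target. Chains through different lysines of ubiquitin have different fates, of which K48 chains send proteins to the proteasome and K63 chains serve as scaffolds for signals. The Usp and Uch genes encode the ubiquitin-specific and the ubiquitin C-terminal hydrolase families of deubiquitinases, which cut ubiquitin off. In T cells, the ligases c-Cbl, Cbl-b, Itch and Nedd4 act on receptors and signaling proteins downstream of the TCR.

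The promoters of 4 member genes are shown as examples of E2, deubiquitinase and E3 genes with several tested probe sets of the same sign. Other such genes, among them Usp3 and Ube2h, are not shown. Each runs from 250 bases before to 50 bases after the transcription start in RefSeq (GRCm38.p6), is written 5′ to 3′ in the direction of the gene, and has in capitals the matches to the GC box GGGCGG on either strand, where adjoining matches can overlap.
Ube2j1, chr4:33031130-33031429, plus strand: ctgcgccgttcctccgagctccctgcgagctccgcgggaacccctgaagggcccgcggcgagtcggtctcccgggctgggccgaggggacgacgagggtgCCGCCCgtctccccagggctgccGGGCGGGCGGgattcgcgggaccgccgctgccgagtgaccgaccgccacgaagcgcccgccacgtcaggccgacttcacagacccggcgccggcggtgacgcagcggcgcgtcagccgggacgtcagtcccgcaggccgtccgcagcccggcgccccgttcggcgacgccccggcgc
Ube2n, chr10:95514912-95515211, plus strand: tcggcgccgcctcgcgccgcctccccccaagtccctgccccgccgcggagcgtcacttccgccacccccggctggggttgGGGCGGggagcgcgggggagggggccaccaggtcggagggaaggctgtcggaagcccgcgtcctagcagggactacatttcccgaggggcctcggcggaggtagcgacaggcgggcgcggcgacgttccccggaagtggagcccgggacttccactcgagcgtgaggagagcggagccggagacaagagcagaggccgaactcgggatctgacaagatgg
Usp7, chr16:8738293-8738592, minus strand: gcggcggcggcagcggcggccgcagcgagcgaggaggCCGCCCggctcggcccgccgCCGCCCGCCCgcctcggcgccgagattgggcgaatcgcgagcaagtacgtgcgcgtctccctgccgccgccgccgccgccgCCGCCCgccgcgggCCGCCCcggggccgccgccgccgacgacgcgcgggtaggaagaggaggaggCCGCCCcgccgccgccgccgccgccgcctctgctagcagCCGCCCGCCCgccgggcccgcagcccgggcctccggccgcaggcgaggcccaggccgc
Cbl, chr9:44233997-44234296, minus strand: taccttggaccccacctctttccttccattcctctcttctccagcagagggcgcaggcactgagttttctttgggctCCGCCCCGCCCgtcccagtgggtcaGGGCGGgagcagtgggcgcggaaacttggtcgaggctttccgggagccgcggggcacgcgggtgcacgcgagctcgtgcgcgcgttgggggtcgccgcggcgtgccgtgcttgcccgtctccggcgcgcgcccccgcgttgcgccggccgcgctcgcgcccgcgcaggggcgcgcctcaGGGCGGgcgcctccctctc
The GC box occurred 3 times at Ube2j1, 1 time at Ube2n, 8 times at Usp7 and 4 times at Cbl, against at least 1 match in 35.7% of all 32851 RefSeq promoter windows of that length. TATAAA, found on either strand in 13.6% of all windows, was in none of these 4. CCAAT, found in 37.4%, was in that of Usp7 alone among them. Of the 86 genes, 68 had an entry in the promoter table, and Uspl1, discussed below, was not among them. These matches describe the letters of the windows and say nothing of binding.

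A value is a scaled intensity, a probe set's brightness on a linear scale, and is comparable between the arrays of 1 type for the same probe set. The detection limit, 2 SDs of the noise, was 421 on U74Av2, 869 on U74Bv2 and 1579 on U74Cv2. Of the 195 member probe sets, 108 (64 genes) were tested, of 12845 in all, because both arrays of one group or the other exceeded the limit. Above the limit on all 4 arrays were 90, and under it on all 4 were 69. The filter passed 52 of 72 member probe sets on U74Av2, 36 of 68 on U74Bv2 and 20 of 55 on U74Cv2. There were 22 genes with no tested probe set, among them Ube2v2, Ube2f, Ube2e3, Usp2, Usp13, Usp26, Usp28, Usp30, Usp46 and Usp8. Usp8, which removes ubiquitin from endocytosed receptors, lay at the limit of U74Av2 with 354 and 418 in C57BL/6 and 377 and 499 in AND-TCR–transgenic thymocytes.

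No member probe set passed the limma test at an adjusted p under 0.05, where 0.483% of all tested probe sets were called higher and 0.568% lower in AND-TCR–transgenic thymocytes, 1.05% in all. The lowest adjusted p among the 108 was 0.105. At an unadjusted p under 0.05, 2 member probe sets were higher and 6 were lower, against 7.47% and 6.51% of all tested probe sets, so that 7.41% of the members and 14% of all probe sets were under it. The 8 became 5 when the first C57BL/6 hybridization was left out, and 5 when the prior variance was fitted without a trend. The values of the groups did not overlap in 18 members (16.7%) that were higher and in 21 (19.4%) that were lower in transgenic thymocytes, compared with 23% and 21.4% of all tested probe sets. All of these shares were under those of the whole arrays.

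The sizes of the differences were also near or under those of the whole arrays. The log2 fold changes, AND-TCR transgenic over C57BL/6, ran from -0.90 to 0.81 with a median of 0.02, which was the median of all tested probe sets too. Of the 108 values 57 were positive and 51 negative. The median size without sign was 0.22, against 0.26 for all. A difference under 1.5-fold was found in 96 (88.9%), against 83.2% of all tested probe sets. The members past that fold were 6 higher and 6 lower, beside 9.18% and 7.62% of all. The 95% interval lay within 2-fold in either direction for 72 of the 108 and reached past 2-fold for the others.

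**Figure D1:**
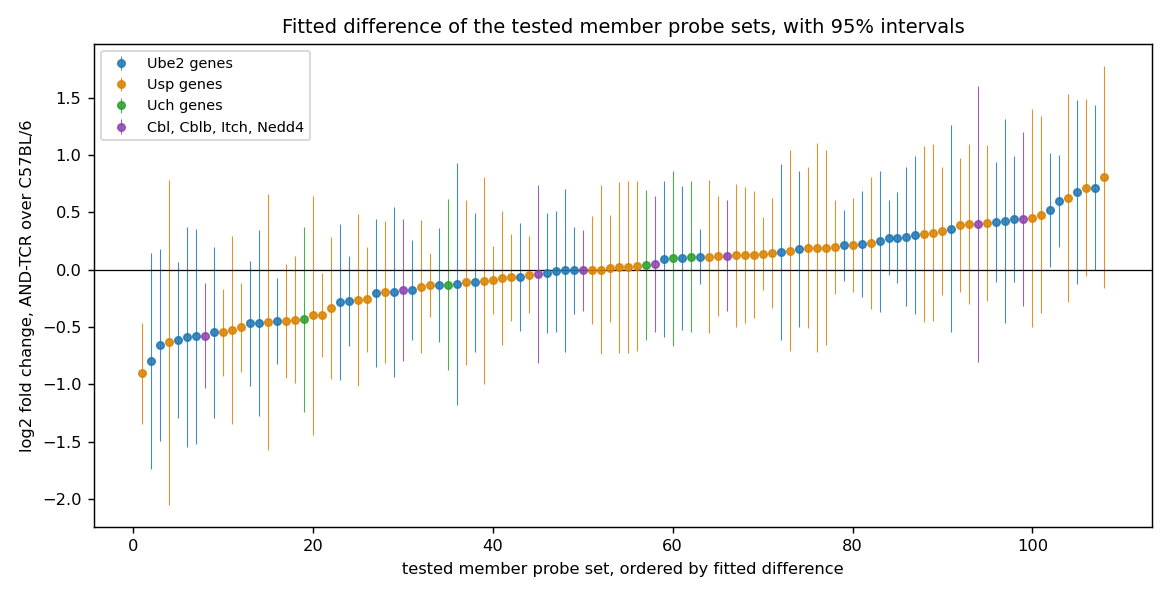
The log2 fold change (AND-TCR transgenic over C57BL/6) of each of the 108 tested member probe sets, sorted by value and colored by family, with its 95% interval from limma. The values run from -0.90 to 0.81 around a median of 0.02, and 57 lie above 0.

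The 8 member probe sets under an unadjusted p of 0.05 came from 7 genes and had groups that did not overlap. The one with the lowest p was that of Uspl1, whose product cuts the ubiquitin-like modifier SUMO and not ubiquitin, although the name places it with the Usp genes. On U74Bv2 it read 5285 and 4927 in C57BL/6 and 2989 and 2487 in AND-TCR–transgenic thymocytes. Both C57BL/6 arrays were above both transgenic arrays, a log2 fold change of -0.90 (SE 0.18, limma adjusted p = 0.105), or 1.87-fold lower.

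Usp7 encodes the deubiquitinase HAUSP, which stabilizes Mdm2 and p53. Its probe set on U74Av2 read 7302 and 5894 in C57BL/6 and 4598 and 4662 in AND-TCR–transgenic thymocytes, a log2 fold change of -0.50 (SE 0.17, limma adjusted p = 0.243). A second probe set, on U74Bv2, read 1246 and 1296 in C57BL/6 and 865 and 403 in AND-TCR–transgenic thymocytes. There both transgenic values were under the limit, which gives a bound of at least 1.46-fold lower (limma adjusted p = 0.203). That probe set passed the filter through the C57BL/6 arrays alone. Raising both transgenic values to the limit took away their spread, so this p-value leaves that spread out and cannot be read as support. Another on U74Av2 read 654 and 1590.3 in C57BL/6 and 876 and 629 in AND-TCR–transgenic thymocytes, and its groups overlapped (log2 fold change -0.46). All 3 had lower transgenic means, and the last had the reverse sign when the second C57BL/6 array was left out.

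Usp3, a deubiquitinase of histones, was measured by 3 tested probe sets of U74Av2. The one under the unadjusted threshold, whose suffix marks probes shared by several transcripts, read 6313 and 5462 in C57BL/6 and 4434 and 4492 in AND-TCR–transgenic thymocytes, a log2 fold change of -0.40 (SE 0.16, limma adjusted p = 0.324). The others had log2 fold changes of -0.44, with groups that did not overlap, and of -0.07, with groups that did. A probe set of Usp3 on U74Cv2 was not tested.

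Ube2n encodes Ubc13, the E2 that makes K63 chains together with a catalytically inactive partner from Ube2v1 or Ube2v2. Its probe set on U74Av2 read 4772 and 4578 in C57BL/6 and 3479.7 and 3372 in AND-TCR–transgenic thymocytes, a log2 fold change of -0.45 (SE 0.16, limma adjusted p = 0.281). On U74Bv2 a second probe set read 3509 and 3087 in C57BL/6 and 2178 and 2596 in AND-TCR–transgenic thymocytes, a log2 fold change of -0.47 (SE 0.22, limma adjusted p = 0.426). On both array types the C57BL/6 values were above the transgenic ones, by 1.36-fold and 1.38-fold. The Ube2n probe set on U74Cv2 was under the limit on all 4 arrays.

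Both probe sets that were higher under this threshold belonged to E2 genes. Ube2j1 encodes an E2 anchored in the membrane of the endoplasmic reticulum that works in the degradation of misfolded proteins. On U74Bv2 it read 4002 and 3299.9 in C57BL/6 and 5499 and 5508 in AND-TCR–transgenic thymocytes, a log2 fold change of 0.60 (SE 0.16, limma adjusted p = 0.196), or 1.51-fold higher. A second probe set, on U74Cv2, read 9319 and 10867 in C57BL/6 and 15392 and 11729 in AND-TCR–transgenic thymocytes, a log2 fold change of 0.42 (SE 0.22, limma adjusted p = 0.466). The transgenic values were above the C57BL/6 values on both array types. A further Ube2j1 probe set of U74Cv2 was not tested.

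Ube2h, the E2 of the CTLH ligase complex and abundant in erythroid cells, read 2928 and 2213 in C57BL/6 and 3547 and 3759.7 in AND-TCR–transgenic thymocytes on U74Av2, a log2 fold change of 0.52 (SE 0.21, limma adjusted p = 0.335). Its other probe set there had a log2 fold change of 0.22. Among 5 listed red blood cell markers 2 were tested, and both had negative log2 fold changes. All U74Av2 probe sets of the listed markers, tested or not, had summed intensities of 10887 and 12836 in C57BL/6 and 7526 and 4940 in transgenic thymocytes. The part of red blood cells in the Ube2h value was not tested.

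**Figure D2:**
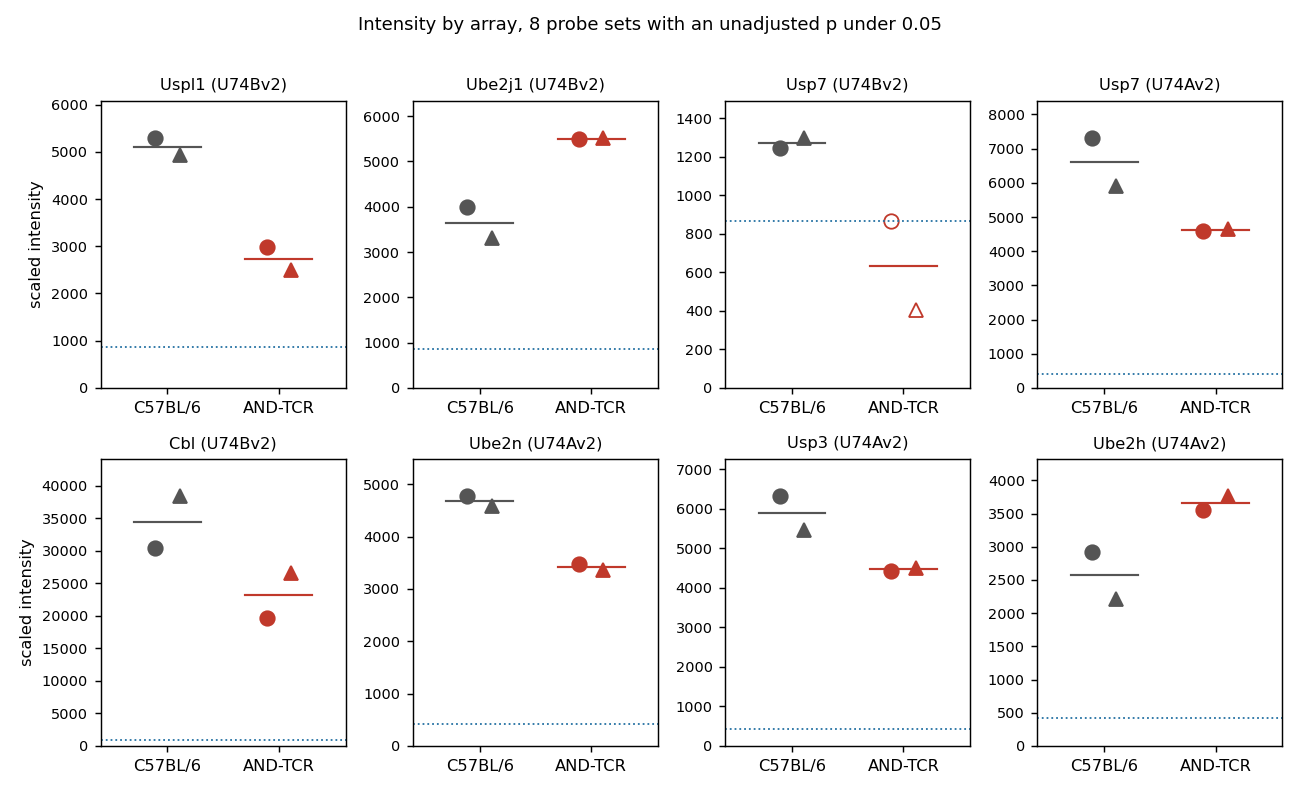
Scaled intensity on each array (linear axes that start at 0) of the 8 member probe sets under an unadjusted p of 0.05, with C57BL/6 and AND-TCR transgenic side by side. Circles are first and triangles second hybridizations, horizontal lines are group means, open symbols are values under the detection limit and the dotted line is that limit. The groups do not overlap in any of the 8, and the lowest adjusted p is 0.105.

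The E2 genes were grouped by their known work. In the group of K48 chains and of the endoplasmic reticulum (Ube2g1, Ube2g2, Ube2j1, Ube2j2, Ube2k, Ube2r2), 11 probe sets were tested, 7 positive and 4 negative, with a median log2 fold change of 0.21. Ube2k, which builds K48 chains without a separate ligase, had values of 0.25 and 0.30 at its tested probe sets. Ube2g2, a partner of ligases in the endoplasmic reticulum, had -0.80 and -0.18. The members of the group thus went to both sides, and 1 of the 11 was under the unadjusted threshold.

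In the K63 group all 4 tested probe sets, of Ube2n and Ube2v1, were negative, with a median of -0.36. Ube2v1 itself, the partner of Ubc13, had -0.01 and -0.27, so that the median rested on Ube2n. Ube2v2 was not tested. The E2 genes of the Rad6 type, Ube2a and Ube2b, which act on histone H2B and in DNA damage tolerance, had 4 tested probe sets with a median of -0.29. The Ube2a value was -0.55, with a transgenic reading of 379 under the limit, and it ran from -0.82 to -0.28 when an array was left out. Ube2b had 0.29, -0.03 and -0.59 at 3 probe sets. The last of these was -0.04 without the second transgenic array and -1.14 without the first. Among the broadly acting E2 genes of the Ube2d and Ube2e families, grouped here with Ube2w, 8 probe sets had a median of -0.16, with 3 positive and 5 negative. The values ran from -0.66 at Ube2e1 (limma adjusted p = 0.474) and -0.61 at Ube2d1 (limma adjusted p = 0.408) to 0.36 at a Ube2d3 probe set and 0.44 at a Ube2w probe set. None of these groups had more than 1 probe set under the unadjusted threshold.

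Ube2s, which lengthens K11 chains for the anaphase-promoting complex, had -0.01. Ube2t, an E2 of DNA repair, had -0.11, with a transgenic reading of 127 under the limit. Of 10 listed genes of dividing cells 8 were tested, 7 of them negative, with a median of -0.44 and 4 under the unadjusted threshold. Their summed U74Av2 intensities were 46613 and 45024 in C57BL/6 and 37116 and 36837 in transgenic thymocytes, and their part in the Ube2s and Ube2t values was not tested. The 12 tested probe sets of the remaining E2 genes had a median of 0.20, with 9 positive. Ube2z, an E2 charged by Uba6, had 0.72 at one probe set and -0.01 at the other.

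Ube2l6, the E2 that transfers the interferon-induced modifier ISG15, read 479.8 and 445 in C57BL/6 and 22.6 and -83.5 in AND-TCR–transgenic thymocytes on U74Av2. The C57BL/6 values were just above the limit of 421 and the transgenic values under it, so that the bound was at least 1.10-fold lower (limma adjusted p = 0.834). On the same array type, Uba7, the E1 of ISG15, read 2078 and 2532 in C57BL/6 and 3875 and 3734 in AND-TCR–transgenic thymocytes (log2 fold change 0.73, limma adjusted p = 0.169). Isg15 read 1149 and 911 in C57BL/6 and 2050.1 and 1618 in AND-TCR–transgenic thymocytes (log2 fold change 0.83, limma adjusted p = 0.302). The E1 and the modifier were thus brighter on both transgenic arrays and the E2 was not. The list of interferon response genes, which holds Isg15, had 5 tested members, 4 positive, with a median of 0.83 and 3 under the unadjusted threshold. Its summed U74Av2 intensities were 6118 and 5843 in C57BL/6 and 8392 and 8441 in transgenic thymocytes.

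Among the E3 ligases, Cbl encodes c-Cbl, which ubiquitinates the TCR complex and signaling kinases in thymocytes. Its probe set on U74Bv2 read 30388 and 38381 in C57BL/6 and 19673 and 26607 in AND-TCR–transgenic thymocytes, a log2 fold change of -0.58 (SE 0.18, limma adjusted p = 0.258). The groups did not overlap, but the gap between them was smaller than the distance between the hybridizations of either group. On U74Av2 another probe set read 4119 and 2591 in C57BL/6 and 3191 and 2606 in AND-TCR–transgenic thymocytes, where the groups overlapped, a log2 fold change of -0.18 (SE 0.26, limma adjusted p = 0.824). The probe sets of Cbl thus gave 1.49-fold and 1.13-fold lower fitted values, and neither passed. Another Cbl probe set, on U74Bv2, was not tested.

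Cblb encodes Cbl-b, which restrains T cell activation. Its probe set on U74Bv2 read 705 and 2131 in C57BL/6 and 1544 and 2087 in AND-TCR–transgenic thymocytes, and the first C57BL/6 value was under the limit. The groups overlapped (log2 fold change 0.40, SE 0.48, limma adjusted p = 0.783), and the sign turned to -0.25 without that array. Itch encodes a HECT ligase that acts on JunB. It read 5114 and 5009.6 in C57BL/6 and 5218 and 4861 in AND-TCR–transgenic thymocytes on U74Av2, a difference of -0.01 on the log2 scale with a 95% interval of -0.36 to 0.35, and 0.05 on U74Cv2.

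Nedd4, a HECT ligase that acts on Cbl-b, read 3745 and 4189.9 in C57BL/6 and 4869 and 5962 in AND-TCR–transgenic thymocytes on U74Cv2. The groups did not overlap there (log2 fold change 0.44, limma adjusted p = 0.607), while its other tested probe sets had 0.12 and -0.04. The 8 tested probe sets of the 4 ligases had 4 positive and 4 negative values with a median of 0.02.

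**Figure D3:**
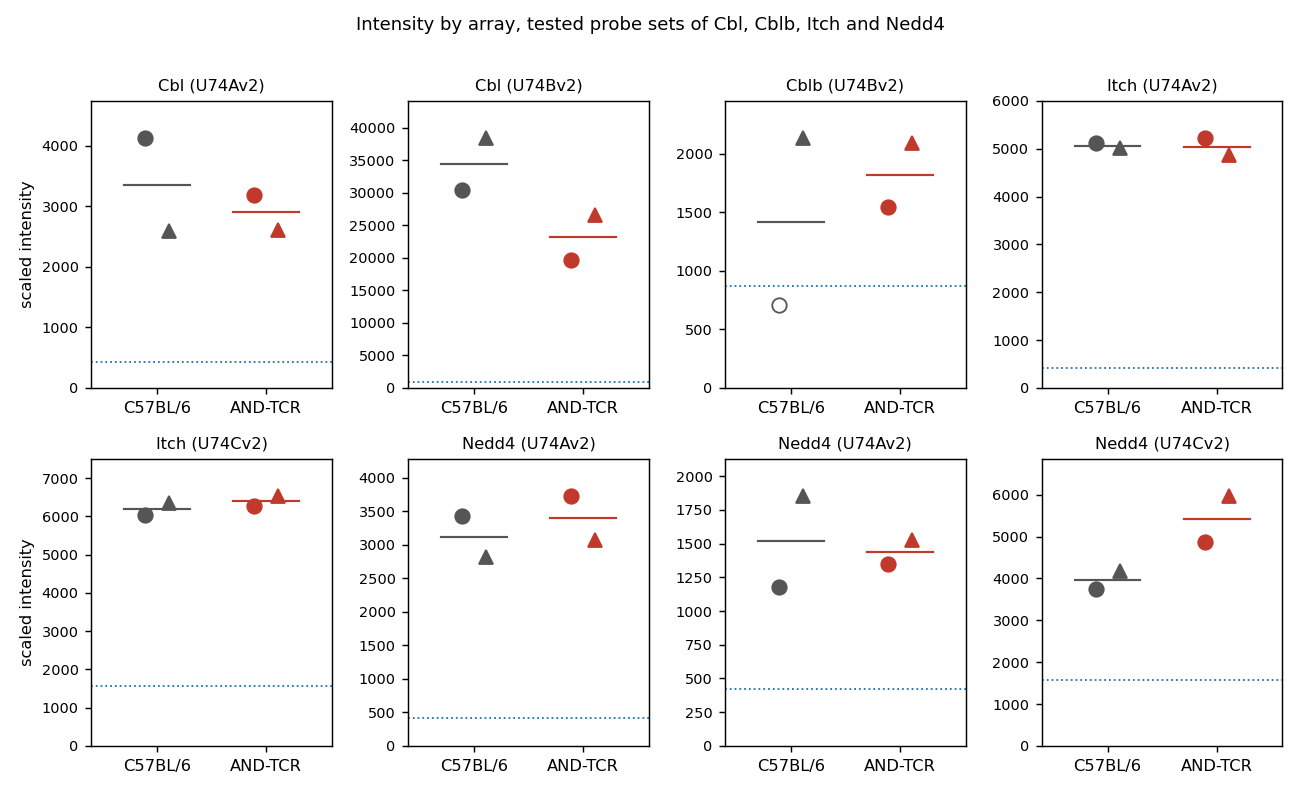
Scaled intensity on each array (linear axes that start at 0) of the tested probe sets of Cbl, Cblb, Itch and Nedd4 in C57BL/6 and AND-TCR transgenic thymocytes, with circles for first and triangles for second hybridizations, lines for group means and a dotted line for the detection limit. The groups are apart at Cbl on U74Bv2 and at Nedd4 on U74Cv2, and they overlap at the other 6 probe sets.

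The Usp genes gave 53 tested probe sets of 33 genes, with a median log2 fold change of 0.03, 30 positive and 23 negative. Beside the 4 lower probe sets of Uspl1, Usp7 and Usp3 under the unadjusted threshold there was no higher one. The highest values were those of Usp36, a nucleolar deubiquitinase, at 0.81 (limma adjusted p = 0.439) and of Usp24 at 0.71 (limma adjusted p = 0.399). That Usp36 probe set read 1048 and 1977 in C57BL/6 and 2793 and 2273 in AND-TCR–transgenic thymocytes. Usp24 read 932 and 1459 in C57BL/6 and 2061.5 and 1776.5 in AND-TCR–transgenic thymocytes. The other Usp36 probe set had 0.45, with overlapping groups and a transgenic reading of 314 under the limit. Of the other Usp deubiquitinases with known work in T cells beside Usp7, whose 3 probe sets were negative, Usp4 had 0.22, and Usp22, of the SAGA complex, had -0.09 on U74Bv2 and 0.00019 on U74Av2. Usp15 had 0.62, -0.07 and -0.45 at 3 probe sets, and at the first of these, where a C57BL/6 reading of 394 was under the limit, the value ran from 0.19 to 1.06 when an array was left out.

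The X-linked members were looked at beside the sex of the mice. Xist, transcribed from the inactive X chromosome of females, read 2878 and 3001 in C57BL/6 and -52.8 and -98.6 in transgenic thymocytes, and the Y-linked Eif2s3y was the reverse, with -110 and 13 against 1649 and 1529. Sex and transgene therefore cannot be told apart here. Usp9x, which acts on TCR signaling proteins, had 0.03, Usp11 had 0.01 and 0.13, and Ube2a had -0.55. At the latter Usp11 probe set, on U74Cv2, a C57BL/6 reading of 1193 was under the limit. Usp26 was not tested.

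The Uch genes had 5 tested probe sets with a median of 0.04, and none was under the unadjusted threshold. Uchl1, known from neurons, had 0.04, with a C57BL/6 reading of 230 under the limit, and Uchl3 had 0.11. Uchl5, a deubiquitinase of the proteasome, had 0.10 on U74Av2 and -0.43 and -0.13 on U74Bv2. The groups did not overlap at the former U74Bv2 probe set, but its value was -0.07 without the second transgenic array and -0.80 without the first (limma adjusted p = 0.632).

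Probe sets of a gene often gave different signs. Of the 34 member genes with several tested probe sets, 17 (50%) had the same sign at all of them, 11 positive and 6 negative, against 1265 of 2239 (56.5%) of all such genes. The median range between a gene's probe sets was 0.32 on the log2 scale, against 0.35 for all. Ube2ql1 was an example, with 0.67 at one probe set and -0.47 at another and groups that did not overlap at either. With the probe set of the highest mean taken for each gene, 32 of the 64 tested genes were positive and 32 negative, with a median of 0.01. With the mean over a gene's probe sets the median was 0.04, and the sign differed in 8 genes.

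**Figure D4:**
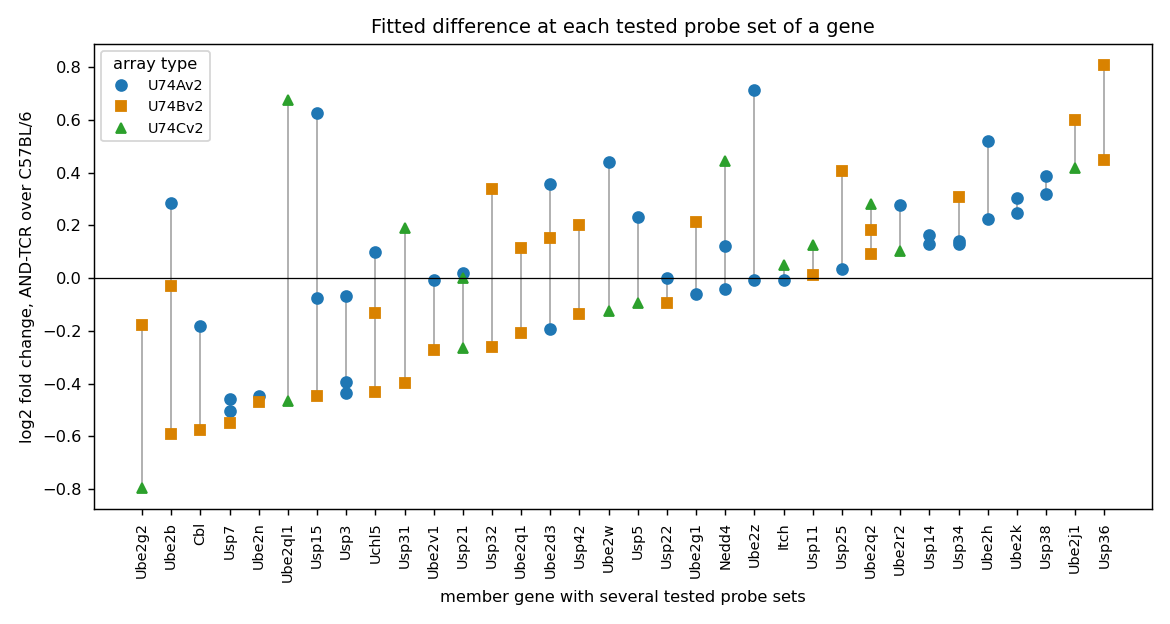
The log2 fold change (AND-TCR transgenic over C57BL/6) of every tested probe set of the 34 member genes that had several, 1 column per gene, with circles for U74Av2, squares for U74Bv2 and triangles for U74Cv2 and a line joining the lowest and highest. In 17 of the 34 genes the points lie on the same side of 0.

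The 3 member probe sets with the highest readings of each array type, which is no ranking of transcripts, were taken as well measured examples. On U74Av2 these were Ube2r2, Usp34 and Usp7, on U74Bv2 Cbl, Ube2q1 and Usp22, and on U74Cv2 Ube2j1, Uchl3 and Usp21. Ube2r2, an E2 of the cullin ligases, read 7168 and 6988 in C57BL/6 and 8103 and 9088 in AND-TCR–transgenic thymocytes. Ube2q1 read 9069.6 and 9179 in C57BL/6 and 9946 and 9785 in AND-TCR–transgenic thymocytes, and Usp21 read 19187 and 15857 in C57BL/6 and 15579 and 19525 in AND-TCR–transgenic thymocytes. The log2 fold changes of these 3 were 0.28, 0.11 and -0.00014.

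The rest of the ubiquitin pathway was described by a list of 121 genes, of which 102 were on the arrays under a single symbol and 91 were tested. At the probe set of the highest mean, 1 was called higher and 0 lower, against 51 and 48 of all 7844 tested genes, and 5 were higher and 3 lower at an unadjusted p under 0.05, against 616 and 525. The median was 0.05, against 0.03 for all genes, with 48 positive and 43 negative. The called gene was Dtx1, a Notch target that encodes the ligase Deltex. It read 2006 and 1599.9 in C57BL/6 and 4566 and 4797 in AND-TCR–transgenic thymocytes, a log2 fold change of 1.39 (SE 0.20, limma adjusted p = 0.0342). Leaving out any 1 hybridization of a group, on all array types, ended this call and every other call of the 12845 probe sets, and a prior variance without a trend ended it too.

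The other genes of that list under the unadjusted threshold did not pass the adjusted test. The K63 and linear chain deubiquitinase Cyld read 3539.9 and 4878 in C57BL/6 and 6089 and 6567 in AND-TCR–transgenic thymocytes (log2 fold change 0.61, limma adjusted p = 0.253). Ndfip1, an adaptor that activates Itch and Nedd4, had 0.62, and Stambpl1, a K63-specific deubiquitinase, had -0.93. Tnfaip3, which encodes A20, had -0.73. Cul2, a scaffold of cullin ligases, read 2371 and 2284 in C57BL/6 and 1200.3 and 1094 in AND-TCR–transgenic thymocytes on U74Cv2, where both transgenic values were under the limit and the fitted -0.56 is a bound. The 5 tested E2 genes without the Ube2 name were negative, with a median of -0.56. No E1, E2, modifier or deubiquitinase of the list was called by limma.

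The cells were also read by their markers. Of 12 listed thymocyte markers 11 were tested, 3 positive and 8 negative, and 4 (Cd8a, Cd8b1, Rag1 and Rag2) were called lower in transgenic thymocytes. The positive ones were Cd3d, Cd3g and Cd3e, with log2 fold changes of 0.40, 0.15 and 0.06, and none was called. Cd4 had -0.56, with groups that did not overlap (limma adjusted p = 0.194). The summed U74Av2 intensities of the listed markers were 248575 and 245669 in C57BL/6 and 140597 and 153425 in transgenic thymocytes. Of 6 B cell markers 4 were tested, 0 were called by limma and 2 were lower at an unadjusted p under 0.05, and the summed intensities were 35018 and 40208 against 26246 and 26320. Of 8 macrophage and dendritic cell markers 5 were tested and 0 called, with 0 under the unadjusted threshold, and the sums were 4259 and 5446 against 5905 and 5308. Of 7 markers of epithelium and stroma 1 was tested, with sums of 2547 and 2475 against 2753 and 4287. The part of these cells in the member values was not tested. Replicate arrays correlated with r of 0.900 to 0.942 in C57BL/6 and 0.874 to 0.939 in transgenic thymocytes over tested probe sets. The groups were washed on different modules of the fluidics station, so that module and group cannot be told apart.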

How the data were processed

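Total RNA of thymocytes was labeled with biotin and hybridized to oligonucleotide arrays of Affymetrix, U74Av2, U74Bv2 and U74Cv2, with 2 arrays per group and type. The authors scanned the arrays and analyzed them with Microarray Suite Version 4.0, and the deposited intensities are linear, in part negative, and scaled to a trimmed mean of about 1000. The sources used here give neither the kind of value nor the scaling target.

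The noise SD of each array type was the median size of its negative intensities multiplied by 1.4826. Intensities under the detection limit of 2 noise SDs were raised to the limit and log2 values were taken, which understates differences of dim probe sets. It also understates their spread, and removes it where both arrays of a group were under the limit. The 66 control probe sets of each type were left out. Groups were compared in limma 3.58.1 (R 4.3.3) by lmFit and by eBayes with trended prior variance, in a separate fit for each array type over all tested probe sets. The p-values of the 3 types were adjusted together by the method of Benjamini and Hochberg. The code was tested on simulated data. No exact permutation test is given, since 2 arrays against 2 cannot reach 0.05.

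Gene symbols came from the platform annotation, and lists outside the members were read at each gene's probe set with the highest mean. The summed intensities of a list instead took all U74Av2 probe sets of its genes, tested or not, with negative values set to 0. Members, gene groups, lists and tests were chosen with earlier results of these data known. Named with values were members under an unadjusted p of 0.05 whose groups did not overlap and all other probe sets of those genes, the 4 ligases, the Uch genes, the 3 members with the highest mean of each type, E2 genes of named chains and modifiers, and Usp genes with T cell work. Other members given as examples (such as Usp36, Usp24, Usp11, Ube2z, Ube2g2, Ube2ql1, Ube2d1, Ube2e1 and Ube2t) and the named pathway genes were picked after their values were seen. The alternatives were another floor, scaling, prior variance, adjustment or block, and fewer arrays. The header of the first C57BL/6 U74Av2 scan notes that it was scanned again. Python 3.11.15 with matplotlib 3.10.9 drew the figures.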

Additional observations from a re-analysis of the deposited data

How the results depend on the processing

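No member probe set was called by limma at an adjusted p under 0.05 with the floor and filter at 4 or 1 noise SDs, with quantile normalization or median scaling, without a trend in the prior variance, with adjustment within each array type or without any 1 hybridization, and the lowest member adjusted p of these settings lay between 0.0918 and 0.393. The fit of all probe sets without the filter was set aside. Its prior variance was not usable, because 42.6% to 66% of the probe sets of an array type were at the floor on all 4 arrays. Without a trend, 5 members were under an unadjusted p of 0.05 in place of 8 and 0 other pathway genes were called in place of 1. Over the arrays left out in turn these counts ran from 5 to 9 and from 0 to 0. All probe sets gave 10 calls without a trend and 0 without any 1 hybridization, in place of 135.

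Same-numbered hybridizations did not deviate together (r of 0.04, -0.12 and -0.23 on the 3 array types). These correlations cannot show whether the same number stands for a common experiment, which the labels do not say. The paper lists its folds by experiment and does not tie an experiment to a hybridization number. With the replicate block 299 probe sets were called in place of 135, 0 of them members, with a lowest member adjusted p of 0.0675. With the crossed replicate block, chosen after seeing the data, 457 were called, and 1 of them was a member called lower.

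The 8 probe sets under an unadjusted p of 0.05 had the same sign under every alternative that was kept. The log2 fold change of Usp22 on U74Av2 turned to -0.0082 with quantile normalization and to -0.020 with median scaling, and that of Usp9x to -0.0041 with quantile normalization. Leaving out each hybridization in turn turned the sign of 21 of the 47 probe sets named by rule, none of which was past an unadjusted p of 0.05, with log2 fold changes that ran for Cbl from -0.51 to 0.15, for Cblb from -0.25 to 1.05, for Itch from -0.058 to 0.044, for Nedd4 (0.12 with all arrays) from -0.021 to 0.26, for Nedd4 (-0.04 with all arrays) from -0.37 to 0.28, for Ube2b from -0.30 to 0.24 and for Ube2k from -0.060 to 0.55. They ran for Ube2s from -0.31 to 0.28, for Ube2v1 from -0.10 to 0.086, for Uchl1 from -0.19 to 0.27, for Uchl3 from -0.18 to 0.40, for Uchl5 on U74Av2 from -0.063 to 0.26, for Uchl5 on U74Bv2 (-0.13 with all arrays) from -0.36 to 0.097 and for Usp15 from -0.17 to 0.023. They also ran for Usp21 from -0.16 to 0.16, for Usp22 on U74Bv2 from -0.22 to 0.031, for Usp22 on U74Av2 from -0.33 to 0.33, for Usp3 from -0.15 to 0.017, for Usp34 from -0.12 to 0.40, for Usp7 from -1.10 to 0.18 and for Usp9x from -0.084 to 0.13. Of the 26 others, whose sign was the same without any 1 hybridization, 14 moved by more than 1.5 times on the log2 scale and 12 did not. The causes of these changes were not tested. The 2 arrays per group limit the precision, and the values under the detection limit have no order.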
